A study of Homo sapiens with 18 samples.

Results

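The replication-dependent histone genes were followed across 18 libraries of polyadenylated RNA from HEK293A cells, a line derived from human embryonic kidney. Members were the protein-coding genes with a symbol from H1-1 to H1-6 or a symbol that begins with H2AC, H2BC, H3C or H4C and a number, matched by Ensembl identifier. This gave 70 of the 58336 genes in the count table, namely 6 for linker histone H1, 17 for H2A, 19 for H2B, 13 for H3 and 15 for H4. The knockout cells carry the label LATS1/2-DKO and are called DKO cells here. LATS1 and LATS2 are the kinases that hold back the transcriptional coactivators YAP and TAZ in the Hippo pathway. DKO cells and wild-type cells each received CdCl2 at 50 uM, ZnCl2 at 250 uM or H2O for 4 h, with 3 libraries in each of the 6 groups. The study set out to profile which heavy-metal responses of the transcriptome depend on LATS1/2. The labels name biological replicates, but they do not say whether these came from separate cultures or days, and p-values therefore measure the spread between these libraries. They also do not say whether the DKO cells are a single clone. In RNA from whole cultures, fewer cells of a kind and less RNA per cell cannot be told apart.

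Histone genes of this class supply the core histones H2A, H2B, H3 and H4 and the linker histone H1 that package DNA newly made in S phase. Most of their transcripts are the exception among animal mRNAs in having no poly(A) tail: they end just after a conserved stem-loop, which the stem-loop binding protein SLBP holds while the U7 small nuclear ribonucleoprotein guides cleavage downstream. Some of these genes also have a polyadenylation signal beyond the stem-loop, and polyadenylated histone transcripts have been described in differentiated cells and when the usual 3′ processing is disturbed. The library kit named in the labels captures poly(A) tails, so the values below are levels of the polyadenylated RNA of these genes and not of their whole RNA.

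The stem-loop was searched for in the GENCODE 29 transcripts of all 70 members as a 16-base element with 6 paired bases on either side of a 4-base loop, and 31 members held it. These took 6 forms, of which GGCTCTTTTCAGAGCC was found in 17 members and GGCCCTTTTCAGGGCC in 5. One gene for each form is shown because the element is where the usual transcript without a tail ends. Its passage by the RNA measured here was not tested, and at H4C9 most reads lie on the other strand. The printed stretches lie in GRCh38 at chr1:149886183-149886208 (minus strand) for H2BC21, chr6:26285126-26285151 (minus strand) for H4C8, chr6:26158582-26158607 (plus strand) for H2BC5, chr6:27139649-27139674 (plus strand) for H4C9, chr6:26225591-26225616 (plus strand) for H3C6 and chr6:27133510-27133535 (plus strand) for H2AC11. They run 5′ to 3′ along the gene's own strand, with the stem-loop in capitals and 5 flanking bases on each side.
H2BC21: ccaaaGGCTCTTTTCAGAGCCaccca
H4C8: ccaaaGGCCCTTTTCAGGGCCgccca
H2BC5: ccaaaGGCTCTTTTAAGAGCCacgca
H4C9: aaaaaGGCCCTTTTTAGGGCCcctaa
H3C6: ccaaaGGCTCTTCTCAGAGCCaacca
H2AC11: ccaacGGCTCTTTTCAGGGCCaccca

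Gene models differed in how far they reach beyond the coding sequence. In 25 members an annotated transcript went on for more than 150 bases after the coding sequence, and 24 of these carried the stem-loop in at least 1 transcript. This need not be the long transcript. In H2BC5 at most 39 bases followed the stem-loop, while the longest stretch after the coding sequence was 387 bases. Of the 25, 18 also had the polyadenylation signal AATAAA within the last 45 bases of at least 1 transcript. The model of H2BC21 continued for 1729 bases after its stem-loop, that of H4C8 for 1655 bases and that of H3C6 for 1862 bases. Another 11 models were shorter at the 3′ end, and 34 stopped at the stop codon, so that the annotation shows no 3′ end for them. Of the long models 20 of 25 passed the filter on low counts, against 3 of 11 shorter ones and 9 of 34 that stop at the stop codon. In wild-type cells given zinc the median level was 1.69 CPM per kb of exon for the long models, 0.149 CPM per kb for the shorter ones and 0.217 CPM per kb for those without a 3′ end. The classes were drawn after values had been seen and received no test.

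Libraries held 25478614 to 37148046 counted reads. Replicates differed by 1.61 to 5.06 times counting noise (chi-square per degree of freedom over genes), the widest gaps being those of replicate 3 of wild-type cells given zinc. In CPM (counts scaled to a common library size with edgeR's TMM factors) LATS1 had 53.2 ± 1.94, 49.1 ± 1.12 and 45.3 ± 1.1 CPM in DKO cells given cadmium, zinc and water, against 95.3 ± 2.49, 80.7 ± 3.37 and 79.2 ± 2.47 CPM in wild-type cells (mean ± SD, n = 3 each). LATS2 had 25.0 ± 1.02, 38.2 ± 2.19 and 18.6 ± 0.334 CPM in DKO cells given cadmium, zinc and water, against 41.9 ± 2.85, 47.8 ± 3.1 and 16.4 ± 0.147 CPM in wild-type cells. In water LATS1 was lower in DKO cells and LATS2 slightly higher (edgeR adjusted p = 5.62e-20 and 0.013). The labels do not give the edited position, so these whole-gene counts do not check the LATS2 label. The 8 marker genes of the HEK293 line summed to 2780 to 3140 CPM in DKO libraries and 818 to 1050 CPM in wild-type libraries, with 2 of 8 under 1 CPM throughout. Fibroblast markers (8 genes, 3 under 1 CPM) summed to 52.3 to 65.4 CPM in DKO and 10.8 to 15 CPM in wild-type libraries. Keratinocyte markers (6 genes, KRT1 at 0) summed to 18.9 to 27.8 and 19.6 to 25.7 CPM in DKO and wild-type libraries, and blood markers (7 genes, HBB at 0) to 2.43 to 5.6 and 2.44 to 4.49 CPM. The part of these marker differences in the genotype comparisons below was not tested.

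Histone transcripts of this class were scarce. The 70 members took 0.00428% to 0.0233% of the reads of a library. In wild-type cells given water their median level was 0.0688 CPM per kb of exon, against 24.1 CPM per kb for 12 replication-independent histone genes, the polyadenylated class that includes H2AZ1 and H3-3B. By annotated exon length, H2BC12 was the highest member at 45.3 CPM per kb in that group. H2AC25 at 11.6, H1-2 at 7.79, H4C9 at 7.53 and H2AC6 at 3.66 CPM per kb followed. The H2BC12 value uses 381 bases, a model that stops at the stop codon. Over all 18 libraries the count table held 10689 reads at H2BC12, against 12455 on its own strand when counted by strand. At H4C9 it held 6685, against 8147 on the other strand. The gene models behind the counts are not given, and a longer one for H2BC12 would lower its value per kb. Whether such a model reaches H4C9 was not tested. A total of 32 members passed the filter on low counts and were tested among 19393 genes, and they hold 98.6% of the 63063 reads counted at members. In the count table, which ignores strand, the other 38 had at most 162 reads over all 18 libraries with a median of 12. There 8 of them had none. Of these 8, H2AC15 overlaps H2BC15 on the opposite strand. Counted by strand, H2AC15 had 502 reads on its own strand and 75 on the other. Of the 32 tested, 16 had fewer than 10 reads in at least 1 library, so that some passed the filter only through the groups where they were high; counts over the tested members therefore describe them and are not evidence about the whole class.

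At 2 of the 32 loci the reads lay almost wholly on the strand opposite to the annotated gene. The reads counted at H1-5 were 0 on its own strand and 383 on the other, and those at H4C9 were 366 and 8147. For 27 tested members more than 90% of strand-assigned reads lay on the gene's own strand, and the median over all tested genes was 99.4%. H2BC15 with 85.7%, H4C5 with 83.2% and H2BC6 with 81.7% fell between. The opposite-strand reads at H4C9 (chr6:27138588-27139881) lie 6536 bases downstream of H2BC12 (chr6:27146418-27146798), the nearest member upstream on that strand. The opposite-strand reads at H1-5 (chr6:27866849-27867529) lie 1050 bases beyond the end of H2BC15 (chr6:27837760-27865798). H2AC16 (chr6:27865355-27865747) sits inside the annotated span of H2BC15 on the same strand, so their reads may be shared. Values of H4C9 and H1-5 are given below as signal at these loci and not as expression of the 2 genes.

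**Figure D1:**
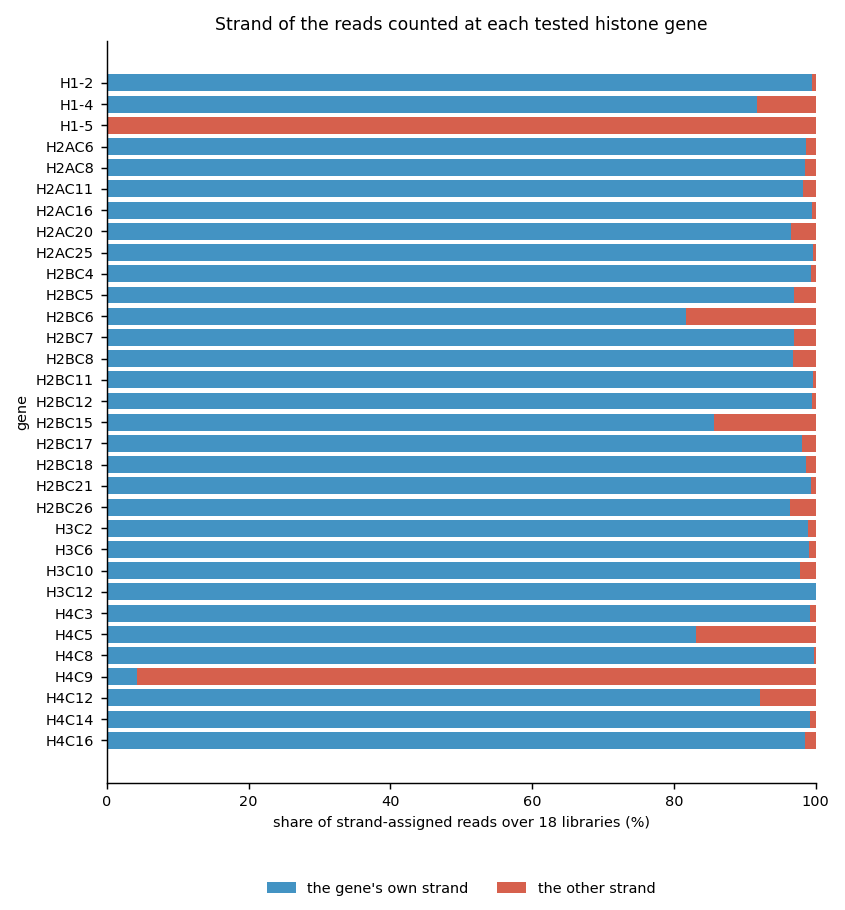
Share of strand-assigned reads, in percent summed over 18 libraries, that lay on the gene's own strand (blue) or on the other strand (red) for each of the 32 tested histone genes. H1-5 with 0.0% and H4C9 with 4.3% on their own strand stand apart from the other 30.

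Sequence identity limits some members further. Of the 50-base windows of H2BC12, 25.9% occur in no other annotated transcript; the share was 2.5% for H4C14, 0.0% for H4C12, 59.1% for H3C12, 69.5% for H2AC20 and H2BC6, and 73.1% for H2BC18. Among the other members with at least 2 CPM it was 86.4% or more, as for H2BC17. How reads that fit several genes were counted is not given in the sources used here. H2BC18 and FCGR1A, and H2BC6 and an unnamed gene, overlap on opposite strands.

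The summed histone signal was higher with either metal than with water in both genotypes, with no overlap between libraries; the sums received no test. All members together reached 64.6 ± 1.68, 102 ± 4.62 and 42.2 ± 1.49 CPM in DKO cells given cadmium, zinc and water, against 172 ± 4.95, 231 ± 9.48 and 71.8 ± 2.32 CPM in wild-type cells (mean ± SD, n = 3 each). These are 1.53-fold (cadmium) and 2.42-fold (zinc) over water in DKO cells and 2.4-fold and 3.21-fold in wild-type cells. DKO cells had 0.376, 0.443 and 0.587 times the wild-type sum with cadmium, zinc and water. Without H1-5 and H4C9 the sums were 57.3, 89.6 and 37.6 CPM in DKO cells and 152, 209 and 62.1 CPM in wild-type cells. The 12 replication-independent histone genes stayed between 1770 and 1880 CPM in all 6 group means.

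**Figure D2:**
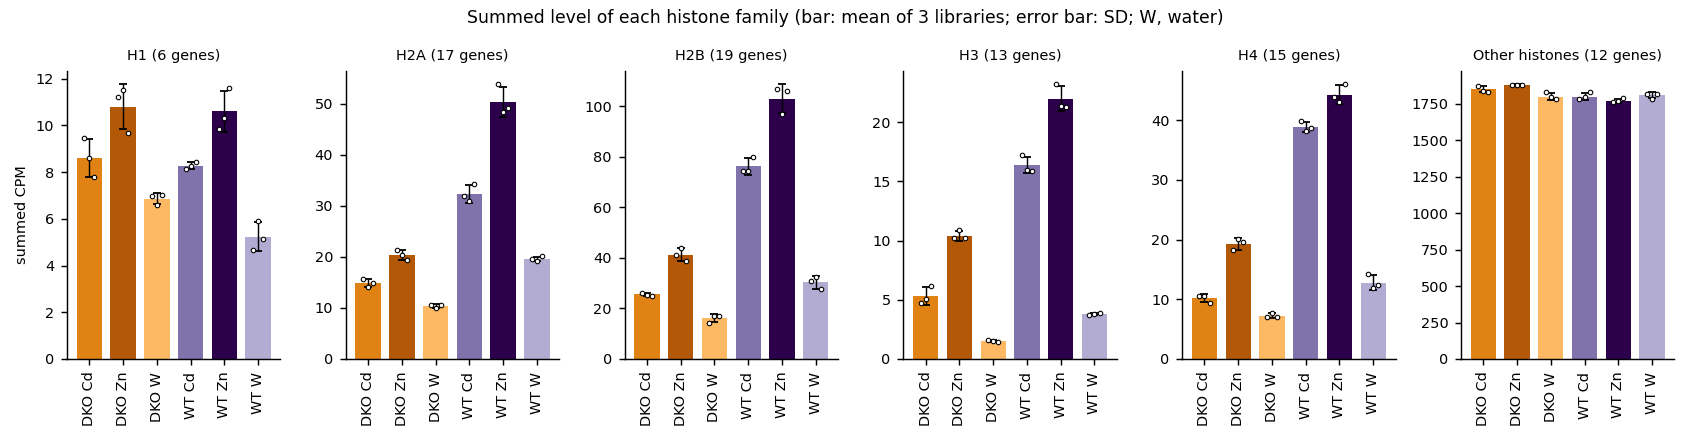
Summed level in CPM of each histone family and of 12 replication-independent ("other") histone genes in the 6 groups; bars are means of 3 libraries, error bars the SD and open points the libraries. H2A, H2B, H3 and H4 were lower in DKO than in wild-type cells under each treatment, while H1 had 6.86 CPM in DKO and 5.24 CPM in wild-type cells given water.

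H3 genes showed the widest relative range as a family: 5.34 ± 0.76, 10.4 ± 0.404 and 1.54 ± 0.0821 CPM in DKO cells given cadmium, zinc and water, against 16.4 ± 0.705, 22.0 ± 1.06 and 3.77 ± 0.0862 CPM in wild-type cells. H2B genes made up the largest sum, 25.6 ± 0.557, 41.3 ± 2.64 and 16.1 ± 1.6 CPM in DKO cells against 76.2 ± 3.41, 103 ± 5.68 and 30.3 ± 2.42 CPM in wild-type cells. H1 genes had the smallest ratios of the 5 families with either metal, with zinc over water ratios of 1.57 in DKO and 2.02 in wild-type cells. H2BC12 alone took 24.0% of the members' sum in wild-type cells given water, and 14.6% with zinc.

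In wild-type cells zinc raised nearly every tested member. At a Benjamini-Hochberg adjusted p under 0.05 in edgeR's quasi-likelihood test, 30 of 32 members rose and 0 fell, while 29.4% of the 19393 genes tested rose and 32.0% fell; 0 members also fell at an unadjusted p under 0.05 and in DESeq2. The members' median log2 fold change was 2.06, against -0.01 over all genes. Cadmium raised 26 of 32 and lowered 0 (0 unadjusted and 0 by DESeq2), where 30.0% of all genes rose and 31.7% fell, with a median of 1.5. The exceptions in zinc were H2AC20 (0.25) and H4C3 (-1.02 on the log2 scale), neither past the threshold.

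**Figure D3:**
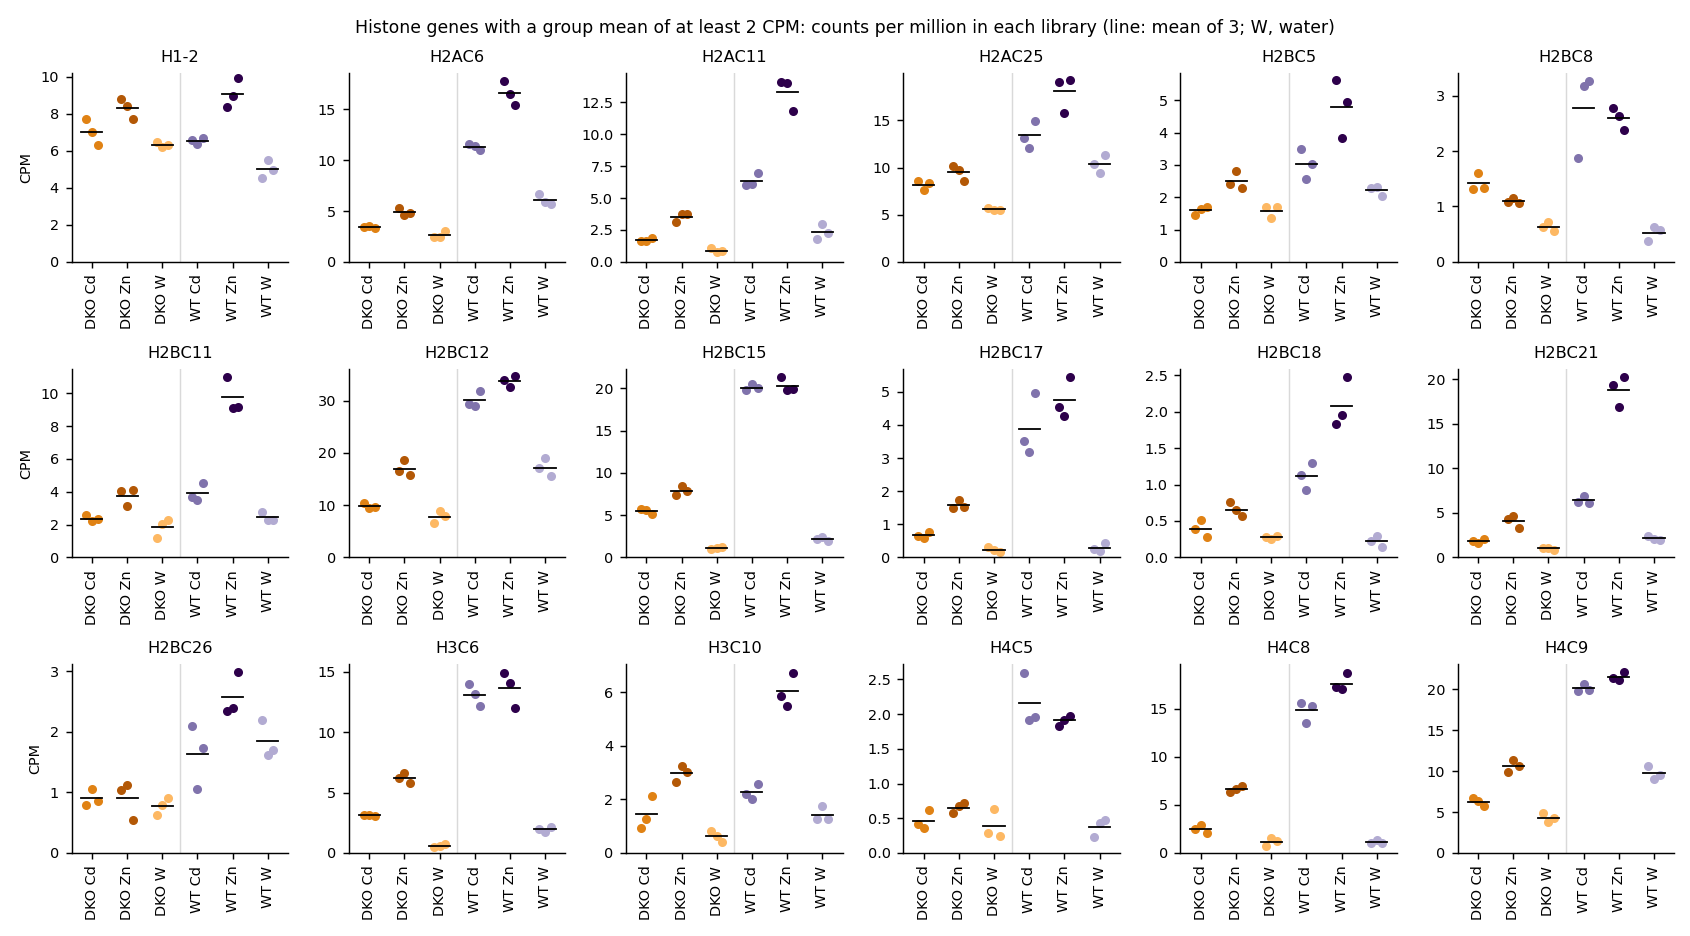
CPM in each library (points) and group mean (line) for the 18 histone genes whose highest group mean reached 2 CPM; the axis of each panel starts at 0. For H4C8, H2BC17 and H2BC15 the wild-type metal libraries lie far above all water libraries, and DKO libraries given the same metal lie between them.

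In wild-type cells the H4 gene H4C8 had the largest fold change with either metal among members with at least 2 CPM. In DKO cells several members had larger ones, among them H3C6, H2BC15 and H2BC17 with both metals. H4C8 had 2.54, 2.87 and 2.03 CPM in DKO cells given cadmium, 6.36, 6.66 and 6.95 CPM with zinc and 0.775, 1.54 and 1.21 CPM with water. Wild-type cells gave 15.6, 13.5 and 15.3 CPM with cadmium, 17.2, 17 and 18.7 CPM with zinc and 1.07, 1.32 and 0.992 CPM with water. Both wild-type metal groups lay above every DKO library, and the DKO and wild-type water libraries overlapped. The rise over water was 3.71 ± 0.13 with cadmium and 3.97 ± 0.13 with zinc in wild-type cells (log2 ± SE; edgeR adjusted p = 7.38e-25 and 4.46e-26), that is 13.1-fold and 15.6-fold.

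H4C5 had 0.414, 0.354 and 0.62 CPM in DKO cells given cadmium, 0.57, 0.68 and 0.716 CPM with zinc and 0.282, 0.627 and 0.251 CPM with water. Wild-type cells gave 2.6, 1.91 and 1.96 CPM with cadmium, 1.83, 1.91 and 1.98 CPM with zinc and 0.23, 0.429 and 0.482 CPM with water. With either metal the wild-type libraries of H4C5 were above all others, while those of DKO cells overlapped with water. H4C9, the locus read on the other strand, followed the same groups at a higher level. H4C9 gave 6.68, 6.29 and 5.79 CPM in DKO cells given cadmium, 9.84, 11.4 and 10.6 CPM with zinc and 4.86, 3.83 and 4.27 CPM with water. Wild-type cells gave 19.7, 20.6 and 19.9 CPM with cadmium, 21.3, 21.1 and 22.1 CPM with zinc and 10.6, 9.08 and 9.53 CPM with water. Its wild-type metal groups stood above its other groups and its DKO water group below them, without overlap at either end.

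Among H2B genes with at least 2 CPM, H2BC17, H2BC15, H2BC18 and H2BC21 had the largest rises with zinc in wild-type cells, 15.4-fold, 9.3-fold, 9.39-fold and 8.74-fold. H2BC15 had 5.79, 5.67 and 5.17 CPM in DKO cells given cadmium, 7.44, 8.5 and 7.81 CPM with zinc and 0.952, 1.13 and 1.26 CPM with water. Wild-type cells gave 19.8, 20.5 and 20 CPM with cadmium, 21.3, 19.8 and 19.9 CPM with zinc and 2.15, 2.44 and 1.98 CPM with water. Cadmium and zinc libraries of wild-type cells overlapped, and each lay above all DKO libraries. The log2 fold changes over water were 3.2 ± 0.09 with cadmium and 3.22 ± 0.09 with zinc in wild-type cells (edgeR adjusted p = 1.05e-27 and 9.97e-28). Counted on its own strand alone they were 3.31 and 3.32.

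H2BC17 had 0.662, 0.59 and 0.758 CPM in DKO cells given cadmium, 1.49, 1.73 and 1.52 CPM with zinc and 0.317, 0.219 and 0.176 CPM with water. Wild-type cells gave 3.51, 3.18 and 4.97 CPM with cadmium, 4.54, 4.27 and 5.43 CPM with zinc and 0.269, 0.198 and 0.425 CPM with water. The water libraries of the 2 genotypes overlapped in H2BC17, and the wild-type metal libraries lay above all DKO libraries. The rise in wild-type cells was 12.6-fold with cadmium and 15.4-fold with zinc (edgeR adjusted p = 2.41e-16 and 8.98e-18). H2BC17 reached 10 reads in all 3 libraries of 4 groups, none of them a water group, and was thus tested through the groups where it is high. H2BC21 had 1.82, 1.61 and 2.03 CPM in DKO cells given cadmium, 4.27, 4.69 and 3.28 CPM with zinc and 1.09, 1.1 and 0.879 CPM with water. Wild-type cells gave 6.26, 6.9 and 6.06 CPM with cadmium, 19.3, 16.9 and 20.2 CPM with zinc and 2.46, 2.05 and 2.01 CPM with water. For H2BC21 the 3 wild-type zinc libraries were the highest of the 18 by a wide margin, and cadmium came next.

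H2BC12 was the most abundant member and changed less. H2BC12 had 10.5, 9.56 and 9.58 CPM in DKO cells given cadmium, 16.6, 18.6 and 15.7 CPM with zinc and 6.52, 8.87 and 8.01 CPM with water. Wild-type cells gave 29.4, 28.9 and 31.8 CPM with cadmium, 33.9, 32.6 and 34.7 CPM with zinc and 17.1, 19 and 15.6 CPM with water. Each wild-type group lay above the DKO group of the same treatment. The rise in wild-type cells was 1.75-fold with cadmium and 1.96-fold with zinc. H2BC11 had 2.57, 2.2 and 2.34 CPM in DKO cells given cadmium, 4.05, 3.13 and 4.08 CPM with zinc and 1.16, 2.04 and 2.29 CPM with water. Wild-type cells gave 3.66, 3.52 and 4.54 CPM with cadmium, 11, 9.12 and 9.18 CPM with zinc and 2.76, 2.28 and 2.27 CPM with water. Wild-type zinc libraries of H2BC11 lay above all others, and those of wild-type cadmium and DKO zinc overlapped.

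H2BC8 had 1.32, 1.61 and 1.34 CPM in DKO cells given cadmium, 1.08, 1.16 and 1.07 CPM with zinc and 0.634, 0.721 and 0.553 CPM with water. Wild-type cells gave 1.88, 3.18 and 3.26 CPM with cadmium, 2.78, 2.63 and 2.38 CPM with zinc and 0.384, 0.627 and 0.567 CPM with water. In H2BC8 both metals lifted wild-type cells to a like level, above every other library. H2BC5 had 1.46, 1.65 and 1.69 CPM in DKO cells given cadmium, 2.4, 2.82 and 2.3 CPM with zinc and 1.69, 1.35 and 1.71 CPM with water. Wild-type cells gave 3.48, 2.56 and 3.04 CPM with cadmium, 5.62, 3.82 and 4.95 CPM with zinc and 2.3, 2.31 and 2.04 CPM with water. The 3 wild-type zinc libraries of H2BC5 were the highest, and DKO libraries with cadmium and water overlapped.

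H2BC18 had 0.386, 0.511 and 0.276 CPM in DKO cells given cadmium, 0.759, 0.646 and 0.566 CPM with zinc and 0.282, 0.251 and 0.301 CPM with water. Wild-type cells gave 1.13, 0.923 and 1.3 CPM with cadmium, 1.83, 1.95 and 2.47 CPM with zinc and 0.23, 0.297 and 0.142 CPM with water. The wild-type metal groups of H2BC18 lay above all water libraries and the zinc group above the cadmium group. H2BC18 reached 10 reads in all 3 libraries of 3 groups, none of them a water group, and was likewise tested through groups where it is high. H2BC26 had 0.8, 1.06 and 0.861 CPM in DKO cells given cadmium, 1.04, 1.12 and 0.537 CPM with zinc and 0.634, 0.784 and 0.904 CPM with water. Wild-type cells gave 2.1, 1.06 and 1.74 CPM with cadmium, 2.34, 2.39 and 2.99 CPM with zinc and 2.19, 1.62 and 1.7 CPM with water. Cadmium and water libraries of H2BC26 overlapped in both genotypes, and its rise with zinc in wild-type cells was 1.42-fold (edgeR adjusted p = 0.0237). That call was lost when replicate 2 or 3 of wild-type water or replicate 3 of wild-type zinc was left out (edgeR adjusted p = 0.0937, 0.0836 and 0.123).

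Of the H2A genes, H2AC11 and H2AC6 rose most among those with at least 2 CPM. H2AC11 had 1.66, 1.61 and 1.86 CPM in DKO cells given cadmium, 3.1, 3.77 and 3.73 CPM with zinc and 1.06, 0.784 and 0.829 CPM with water. Wild-type cells gave 6.04, 6.12 and 6.93 CPM with cadmium, 14.1, 14 and 11.8 CPM with zinc and 1.8, 2.94 and 2.27 CPM with water. No metal group overlapped with water of the same genotype. H2AC6 had 3.42, 3.54 and 3.34 CPM in DKO cells given cadmium, 5.28, 4.59 and 4.83 CPM with zinc and 2.43, 2.45 and 3.07 CPM with water. Wild-type cells gave 11.6, 11.4 and 11 CPM with cadmium, 17.8, 16.5 and 15.4 CPM with zinc and 6.64, 5.94 and 5.73 CPM with water. In H2AC6 the 6 groups were fully separated, and even wild-type water lay above DKO zinc.

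H2AC25 had 8.58, 7.59 and 8.37 CPM in DKO cells given cadmium, 10.2, 9.75 and 8.59 CPM with zinc and 5.75, 5.46 and 5.48 CPM with water. Wild-type cells gave 13.1, 12.1 and 14.9 CPM with cadmium, 19.1, 15.8 and 19.3 CPM with zinc and 10.4, 9.44 and 11.3 CPM with water. H2AC25 rose 1.29-fold with cadmium and 1.74-fold with zinc in wild-type cells (edgeR adjusted p = 0.000366 and 8.13e-11). Linker histone H1-2, the only H1 gene with at least 2 CPM, was different in its order. H1-2 had 7.73, 7.04 and 6.34 CPM in DKO cells given cadmium, 8.8, 8.43 and 7.72 CPM with zinc and 6.49, 6.18 and 6.31 CPM with water. Wild-type cells gave 6.58, 6.36 and 6.71 CPM with cadmium, 8.37, 8.95 and 9.92 CPM with zinc and 4.53, 5.51 and 4.96 CPM with water. In water the DKO libraries were above the wild-type libraries without overlap, whereas with either metal they overlapped.

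H3C6 and H3C10 were the H3 genes with at least 2 CPM. H3C6 had 3.12, 3.15 and 3.1 CPM in DKO cells given cadmium, 6.23, 6.66 and 5.78 CPM with zinc and 0.458, 0.596 and 0.754 CPM with water. Wild-type cells gave 14, 13.2 and 12.2 CPM with cadmium, 14.9, 14.1 and 12 CPM with zinc and 2, 1.75 and 2.13 CPM with water. Wild-type cadmium and zinc libraries overlapped in H3C6 and exceeded all others. The log2 fold change over water was 2.74 ± 0.11 with cadmium and 2.79 ± 0.11 with zinc in wild-type cells (edgeR adjusted p = 1.01e-22 and 4.8e-23). H3C10 had 0.938, 1.26 and 2.14 CPM in DKO cells given cadmium, 2.66, 3.23 and 3.04 CPM with zinc and 0.811, 0.627 and 0.427 CPM with water. Wild-type cells gave 2.22, 2.02 and 2.58 CPM with cadmium, 5.86, 5.5 and 6.73 CPM with zinc and 1.27, 1.75 and 1.28 CPM with water. The zinc libraries of wild-type cells stood highest in H3C10, followed by those of DKO cells.

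The remaining 14 tested members had group means under 2 CPM. With zinc in wild-type cells 12 of them rose, with log2 fold changes of 0.98 (H4C16) to 3.44 (H3C12) among those with more than 3 reads in the water group. H4C12, H3C12, H3C2 and H4C14, which are among these 12, reached 10 reads in all 3 libraries of only 1 group, wild type with zinc. They were thus tested mainly or partly through the group where they are high. H4C12 had 46 reads over the zinc libraries and 2 over the water libraries, 23.5 times as many per library size (95% interval from counting alone 6.16 to 200). The signal at H1-5 was 34 reads against 1, a ratio of 34.8 (5.84 to 1410), and H2AC16 had 17 against 3 (5.8, interval 1.68 to 30.9). The intervals cover counting error only. Counted without regard to strand, the 38 members not tested had 113, 157 and 97 reads in all in DKO cells given cadmium, zinc and water. In wild-type cells they had 169, 276 and 67 reads. Their summed level was 1.23 ± 0.218, 1.66 ± 0.193 and 0.967 ± 0.178 CPM in DKO cells, and 1.81 ± 0.187, 3.07 ± 0.779 and 0.76 ± 0.339 CPM in wild-type cells (mean ± SD, n = 3 each), without overlap between either metal and water in wild-type cells.

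DKO cells answered the metals in the same direction with smaller changes for several genes. Zinc raised 25 of 32 members and lowered 0 (0 unadjusted, 0 by DESeq2), where 28.2% of all genes rose and 27.7% fell, and the median log2 fold change was 1.25. Cadmium raised 16 of 32 and lowered 0 (0 unadjusted, 0 by DESeq2), where 23.2% rose and 23.8% fell, with a median of 0.5. H3C6 rose 5.02-fold with cadmium and 9.98-fold with zinc (edgeR adjusted p = 1.42e-13 and 2.22e-20), H2BC15 4.91-fold and 6.98-fold (adjusted p = 6.36e-18 and 6.35e-22), and H4C8 2.08-fold and 5.59-fold (adjusted p = 4.84e-06 and 8.56e-18). H2BC5 and H2BC4 did not pass the threshold with cadmium in DKO cells (0.0 ± 0.19 and 0.0 ± 0.34 on the log2 scale).

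**Figure D4:**
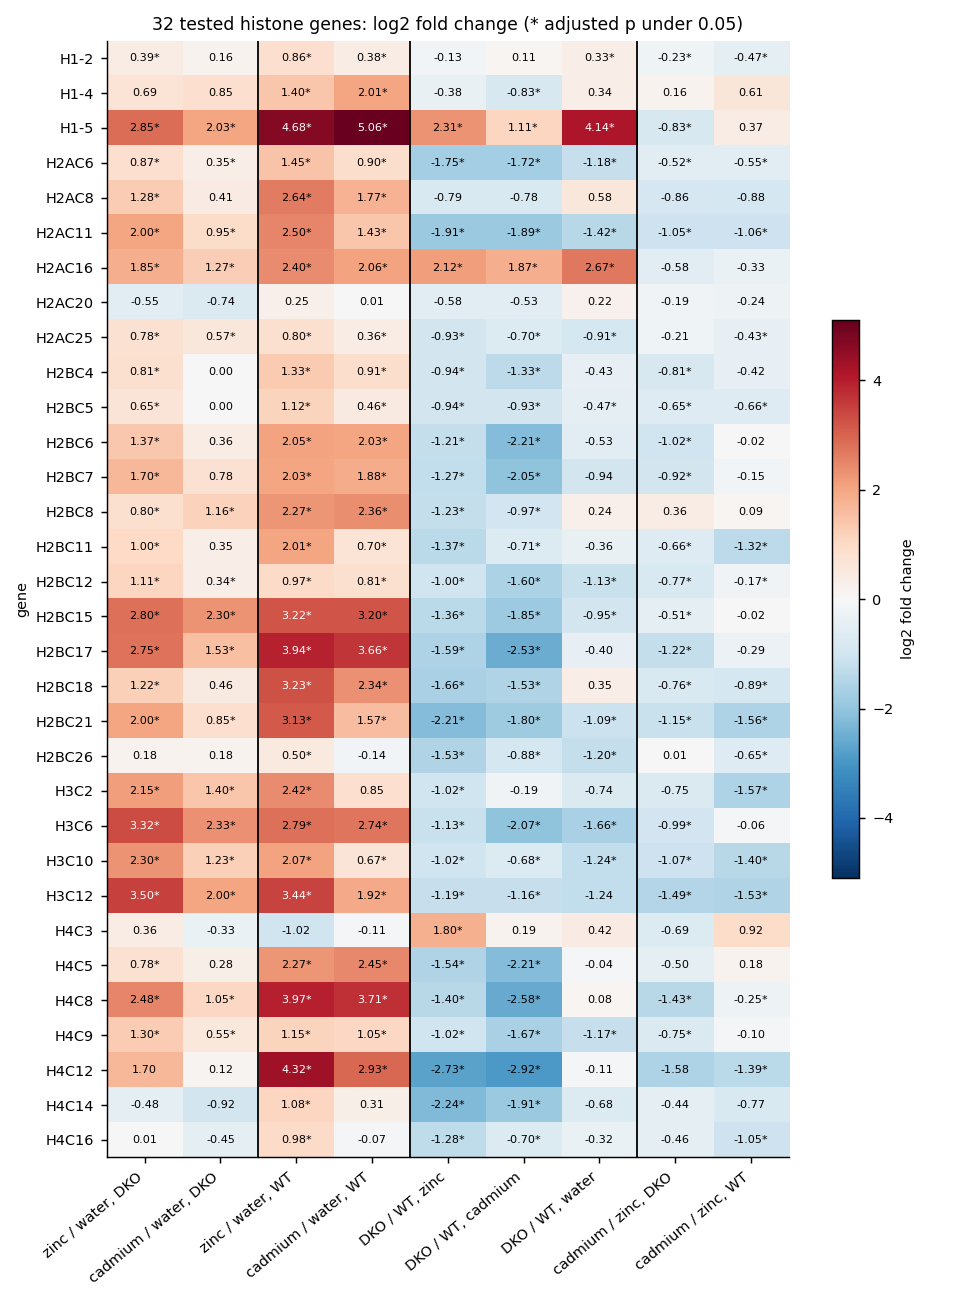
Log2 fold change of each of the 32 tested histone genes (rows) in 9 comparisons (columns), red for higher and blue for lower in the first-named group; an asterisk marks an adjusted p under 0.05. The metal columns are mostly red and the DKO over WT columns mostly blue, with H1-5 and H2AC16 called higher in all 3 DKO over WT columns. H4C3 was also positive in all 3 but passed the threshold with zinc only.

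The test of the difference between the 2 genotypes' responses singled out a smaller set. For zinc, 9 of 32 members had a smaller log2 response in DKO than in wild-type cells and 0 a larger one (1 at an unadjusted p under 0.05, 0 by DESeq2), where 10.5% of all genes were lower and 14.1% higher in this term. For cadmium, 11 of 32 had a smaller response and 0 a larger one (0 unadjusted, 0 by DESeq2), where 14.1% of all genes were lower and 14.0% higher. DESeq2 gave an adjusted p to 23 of the 32 members in the zinc term and to 29 in the cadmium term, so its counts cover only these. H4C8 had the largest such difference with cadmium among members with at least 2 CPM, -2.66 ± 0.25 (DKO minus wild-type log2 response; edgeR adjusted p = 8.3e-11), and -1.48 ± 0.23 with zinc (adjusted p = 5.14e-06). H2BC21 differed by -0.72 ± 0.24 with cadmium and -1.13 ± 0.22 with zinc (edgeR adjusted p = 0.0241 and 0.000193), and the cadmium call was lost when any of 4 single libraries was left out (adjusted p up to 0.0757). H3C6 and H2AC25 did not pass the threshold in either term, with -0.41 ± 0.25 and 0.2 ± 0.13 for cadmium and 0.52 ± 0.23 and -0.02 ± 0.13 for zinc.

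**Figure D5:**
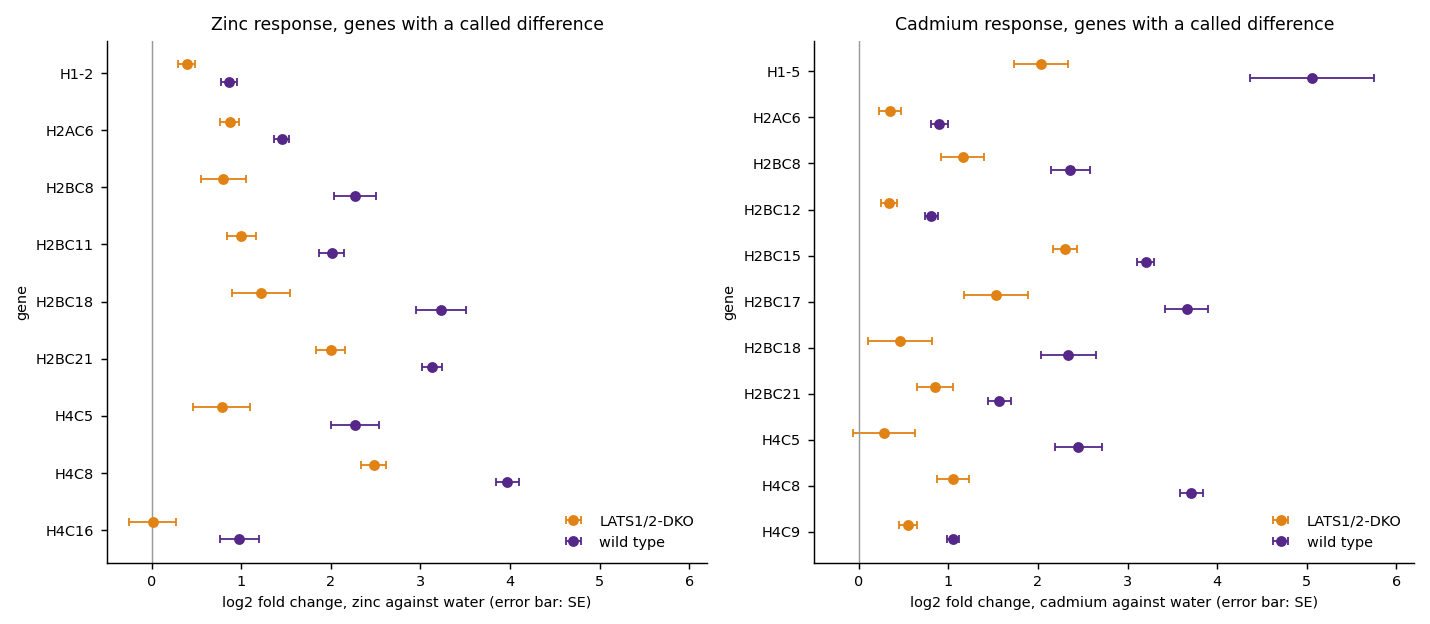
Log2 fold change over water (point, with SE) in DKO (orange) and wild-type (purple) cells for the members whose zinc response (left, 9 genes) or cadmium response (right, 11 genes) differed between genotypes at an adjusted p under 0.05. Each DKO point lies to the left of its wild-type point, for H4C8 at 1.05 against 3.71 with cadmium; the signal at H1-5 is on the other strand and rests on 1 read in wild-type water.

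Without metal the DKO cells had less RNA from 11 of the 32 tested members. In water 11 were lower and 3 higher, where 32.1% of all genes were lower and 30.8% higher. Over the 32, the count of lower members is near the share over all genes, and the count of higher members is below it. Of the 16 members with at least 10 reads in every library, 11 were lower and 1 higher, with a median log2 fold change of -1.02. The lower genes included H3C6 (3.16-fold), H2AC11 (2.67-fold), H3C10 (2.37-fold), H2AC6 (2.26-fold), H2BC12 (2.19-fold) and H2BC21 (2.13-fold; edgeR adjusted p = 1.24e-14 to 0.000106 over these 6). H1-2 was higher, by log2 0.33 ± 0.1 (edgeR adjusted p = 0.00354). H2AC16 (23 reads in DKO against 3 in wild-type water) and the other-strand signal at H1-5 (26 against 1) were the other 2 called higher. H4C8 (0.08), H4C5 (-0.04), H2BC17 (-0.4) and H2BC8 (0.24 on the log2 scale) did not pass the threshold in water.

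With either metal more of the tested members passed the test between genotypes than in water. With zinc 25 of 32 were lower and 3 higher in DKO cells, against 32.7% lower and 34.0% higher among all genes, and with cadmium 25 were lower and 2 higher, against 34.5% and 32.6%. The members' median was -1.2 with zinc and -1.25 with cadmium. Of the 16 members with at least 10 reads in every library, 15 were lower and 0 higher with either metal. Their medians were -1.25 with zinc and -1.28 with cadmium, against -1.02 in water. H4C8 was 5.99-fold lower with cadmium and 2.65-fold lower with zinc (edgeR adjusted p = 4.29e-22 and 7.96e-17), and H2BC17 5.77-fold and 3.01-fold lower (adjusted p = 6.43e-14 and 5.65e-11). H2BC21 was 3.49-fold and 4.64-fold lower (edgeR adjusted p = 9.76e-15 and 1.11e-21). All 12 tested H2B genes were lower in DKO cells with either metal. H1-2 did not differ past the threshold with cadmium (0.11) or zinc (-0.13). H4C3, a gene of at most 0.408 CPM in any library, was higher in DKO cells with zinc (1.8 ± 0.53, edgeR adjusted p = 0.00289). That call rests on 34 reads against 9. H4C3 reached 10 reads in all 3 libraries of only 1 group, DKO with zinc, where it is highest. H3C10 fell by 0.68 on the log2 scale with cadmium (edgeR adjusted p = 0.00376), a call lost without replicate 1 of DKO cells given cadmium (-0.41, adjusted p = 0.0876).

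Members parted in how cadmium compared with zinc. In wild-type cells 16 of 32 were lower with cadmium than with zinc and 0 higher (1 at an unadjusted p under 0.05, 0 by DESeq2), where 25.0% of all genes were lower and 27.3% higher. H2BC21 was 2.94-fold lower with cadmium, H3C10 2.65-fold, H2BC11 2.49-fold and H2AC11 2.09-fold (edgeR adjusted p = 1.58e-17, 1e-09, 1.06e-11 and 7.03e-12). In contrast H2BC15 (-0.02 ± 0.06), H3C6 (-0.06 ± 0.08), H2BC8 (0.09 ± 0.16) and H4C5 (0.18 ± 0.19) did not pass the threshold. In DKO cells 19 of 32 were lower with cadmium and 0 higher (0 unadjusted, 0 by DESeq2), against 24.3% lower and 24.0% higher over all genes. DESeq2 called 15 lower in DKO cells, and leaving out 1 library of either DKO metal group gave 14 to 17. There H4C8 was 2.69-fold lower with cadmium, H3C6 1.99-fold and H2BC15 1.42-fold (edgeR adjusted p = 3.03e-12, 2.39e-09 and 6.53e-06). Without the loci H1-5 and H4C9, 30 members were tested. Of these, zinc raised 23 and cadmium 14 in DKO cells, and 28 and 24 in wild-type cells. DKO cells then had 2 higher and 10 lower in water, 2 and 24 with zinc and 1 and 24 with cadmium, 9 smaller responses to either metal, and 17 (DKO) and 16 (wild type) members lower with cadmium than with zinc. Doses of the 2 salts differed, and the comparisons over water share the water libraries.

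Ordered by group mean, wild-type cells given zinc were the highest group for 26 of the 32 tested members, wild-type cells given cadmium for 3 and DKO cells given zinc for 3. DKO cells given water were the lowest group for 19, wild-type cells given water for 9, DKO cells given cadmium for 3 and wild-type cells given zinc for 1. H2AC6 was ordered, high to low, as wild type with zinc, cadmium and water and then DKO with zinc, cadmium and water, with no overlap between neighbours. H4C8 had the order wild-type zinc, wild-type cadmium, DKO zinc, DKO cadmium, and then the 2 water groups, which overlapped. The signal at H1-5 and H2AC16 had the 2 DKO metal groups highest.

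Promoters of 64 members were matched in RefSeq (GRCh38.p14; 250 bases before to 50 after the start). Those of H2BC21, H2BC17 and H4C8, 3 members with large responses, are printed from the 250 bases before the start, at chr1:149886683-149886932 (minus strand), chr6:27893175-27893424 (plus strand) and chr6:26285535-26285784 (minus strand). Capitals mark matches on either strand to the motifs that were searched.
H2BC21: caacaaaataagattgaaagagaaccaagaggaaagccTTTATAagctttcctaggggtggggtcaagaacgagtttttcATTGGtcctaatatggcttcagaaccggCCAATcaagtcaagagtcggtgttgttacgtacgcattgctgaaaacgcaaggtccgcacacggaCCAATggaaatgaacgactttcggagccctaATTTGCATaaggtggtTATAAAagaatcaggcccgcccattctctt
H2BC17: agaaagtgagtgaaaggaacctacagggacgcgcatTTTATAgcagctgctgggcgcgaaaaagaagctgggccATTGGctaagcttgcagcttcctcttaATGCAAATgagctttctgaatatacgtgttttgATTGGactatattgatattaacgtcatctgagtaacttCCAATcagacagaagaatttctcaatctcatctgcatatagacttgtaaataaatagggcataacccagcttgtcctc
H4C8: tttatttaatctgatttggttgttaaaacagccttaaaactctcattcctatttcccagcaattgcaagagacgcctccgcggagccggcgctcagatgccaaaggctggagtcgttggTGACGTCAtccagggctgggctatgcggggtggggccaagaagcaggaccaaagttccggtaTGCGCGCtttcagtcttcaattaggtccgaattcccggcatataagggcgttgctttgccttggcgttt
The TATA box core TATAAA occurred on either strand in 42 of 64 member promoters (65.6%) and in 11.95% of 27305 promoters of the same length. CCAAT occurred in 54 (84.4%, against 35.7%) and the octamer ATTTGCAT, the site of the POU factor POU2F1, in 26 (40.6%, against 1.8%), of which 11 were H2A and 14 H2B genes. The cyclic AMP response element TGACGTCA, which reads the same on both strands, was in 9 (14.1%, against 1.98%), including H4C8. The metal response element cores, bound by MTF1, were in 0 (TGCACNC, against 11.89%) and 8 (TGCGCNC, 12.5%, against 19.97%). The heat shock elements of 3 units, searched in both phases, had no match, against 0.49% of all promoters for each, and the AP-1 site TGANTCA was in 1 (1.6%, against 7.76%). None of the printed matches was tested for binding.

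Genes that act on histone transcripts moved in both directions. For the counts in the gene lists that follow, the shares of all tested genes that rose and fell were 23.2% and 23.8% with cadmium and 28.2% and 27.7% with zinc in DKO cells. In wild-type cells they were 30.0% and 31.7% with cadmium and 29.4% and 32.0% with zinc. Between DKO and wild-type cells 32.6% were higher and 34.5% lower with cadmium, 34.0% and 32.7% with zinc, and 30.8% and 32.1% with water. Many of the list counts lie near these shares, and no list was tested as a set. Of 17 genes of histone pre-mRNA 3′ processing, 3 rose and 4 fell with cadmium and 5 rose and 6 fell with zinc in DKO cells. In wild-type cells 7 rose and 5 fell with cadmium and 4 rose and 10 fell with zinc. Their medians lay between -0.13 and 0.02. ZNF473, a zinc finger partner of the U7 particle, rose by 0.97 and 1.19 with cadmium and zinc in DKO cells and by 1.49 and 1.48 in wild-type cells (log2; edgeR adjusted p = 2.26e-22 at most). CASP8AP2, known as FLASH and part of the same cleavage reaction, rose by 0.29 and 0.56 in DKO and by 0.42 and 0.68 in wild-type cells. LSM10, a ring protein of the U7 particle, fell by 0.44 and 0.49 in DKO and by 0.26 and 0.58 in wild-type cells. SLBP was lower in DKO cells given water (-0.39, edgeR adjusted p = 1.37e-12), as was SYMPK, a scaffold of the cleavage complex (-0.51, adjusted p = 4e-16). In that comparison 4 of the 17 were higher and 11 lower.

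Of 11 factors of histone gene transcription, 7 rose and 3 fell with cadmium and 6 rose and 3 fell with zinc in DKO cells. In wild-type cells 6 rose and 4 fell with cadmium and 6 rose and 5 fell with zinc. HINFP, an activator of H4 genes, rose with zinc by 0.85 in DKO and 0.81 in wild-type cells. POU2F1 rose with zinc in wild-type cells (0.76), NPAT, the coactivator of histone gene clusters, with cadmium (0.59), and COIL, the Cajal body protein coilin, fell with both metals there (-0.5 and -0.73). NPAT was lower in DKO than in wild-type cells given cadmium (-0.5, edgeR adjusted p = 1.14e-10). In DKO against wild-type cells 5 of the 11 were higher and 4 lower with cadmium, 5 and 5 with zinc, and 3 and 5 with water.

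Cleavage and polyadenylation factors, which make the ordinary 3′ ends, numbered 23. Zinc lowered 13 and raised 4 of them in DKO cells, and lowered 15 and raised 4 in wild-type cells. Cadmium lowered 9 and raised 7 in DKO cells, and lowered 8 and raised 8 in wild-type cells. CSTF1 fell by 0.98 in DKO and 1.26 in wild-type cells with zinc, PCF11 by 0.79 and 0.85, and WDR33, which reads the AATAAA signal, by 0.67 and 0.83 (log2; edgeR adjusted p = 5.05e-18 at most). CSTF3 rose with cadmium by 0.39 in DKO and 0.65 in wild-type cells. In DKO against wild-type cells 10 were higher and 9 lower with water, 12 and 9 with zinc and 7 and 13 with cadmium.

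Of 16 histone mRNA decay genes, 3 rose and 6 fell with cadmium and 6 rose and 8 fell with zinc in DKO cells. In wild-type cells 6 rose and 7 fell with cadmium and 6 rose and 8 fell with zinc. LSM2 of the LSM ring fell by 0.38 with cadmium and 0.87 with zinc in wild-type cells (log2). In DKO cells given water 2 were higher and 9 lower than in wild-type cells, with ERI1, the exonuclease that trims histone 3′ ends, at 0.43 and LSM5 at -0.67. Of 18 histone chaperones, 6 rose and 6 fell with cadmium and 2 rose and 6 fell with zinc in DKO cells. In wild-type cells 6 rose and 7 fell with cadmium and 5 rose and 9 fell with zinc. RBBP7 was higher in DKO than in wild-type cells with cadmium, zinc and water (0.98, 0.96 and 0.94), and ASF1A, an H3 and H4 carrier, was lower (-0.73, -0.72 and -0.44).

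DNA replication genes, with which histone synthesis is coupled in S phase, moved in both directions. Of 33, 10 rose and 10 fell with cadmium and 11 rose and 11 fell with zinc in DKO cells (median log2 fold change -0.01 each). In wild-type cells 10 rose and 16 fell with cadmium and 10 rose and 17 fell with zinc (medians -0.06 and -0.12). In DKO against wild-type cells 16 were higher and 12 lower with cadmium, 16 and 9 with zinc, and 9 and 15 with water. Of the 12 replication-independent histone genes, 4 rose and 3 fell with cadmium and 4 rose and 5 fell with zinc in DKO cells. In wild-type cells 5 rose and 3 fell with cadmium and 4 rose and 6 fell with zinc. H2AZ2 rose with cadmium and zinc by 0.59 and 0.38 in DKO and by 0.57 and 0.38 in wild-type cells (log2).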

How the data were processed

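RNA was extracted with TRIzol and sequenced after a stranded mRNA library kit that captures poly(A) tails, per the labels' protocols. The authors deposited raw counts of reads per gene with Ensembl identifiers, and per the submitters' processing notes used STAR with hg38 and GRCh38.p13. Which counter and annotation were used, and how reads that fit several genes were handled, is not stated in the sources at hand. The series table equals the unstranded column of the files of all 18 libraries, so strand was ignored there; the stranded columns were used to assign reads to strands. Identifiers were matched to GENCODE 29 (58216 of 58336).

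Genes with at least 10 counts in enough libraries (edgeR filterByExpr, a level of 0.327 CPM) were tested: 19393. A single edgeR 4.0.16 quasi-likelihood model of the 6 groups with TMM scaling gave every comparison, in R 4.3.3 with limma 3.58.1, and p-values were adjusted by Benjamini-Hochberg over all genes within a comparison at a threshold of 0.05. Standard errors come from the fold change and its F statistic. The median biological coefficient of variation was 3.93%. Alternatives were DESeq2 1.42.0, other scalings and filters, a replicate block, sense-strand counts, fits of only the groups compared and leaving out each library. Same-numbered libraries of different groups deviated together with correlations of -0.0249 to 0.0864 over 45 pairs, none over 0.1. Their median was 0.0163, against -0.00756 for libraries of different number. For 16 of 18 libraries the mean correlation was highest with their own number. The labels state no pairing and the main model took none, so the replicate block stands as the alternative. Members with a highest group mean of at least 2 CPM are described by library; in the other gene lists up to 4 genes of at least 5 CPM with the largest called changes per comparison could be named. The members, the gene lists and the added alternative were chosen with earlier results of these data known. The scripts were tested on simulated data. Python 3.11.15, pandas 2.3.3 and matplotlib 3.10.9 were used for tables and figures.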

Additional observations from a re-analysis of the deposited data

Results flagged for a closer look

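These results stood out because the metal response differed between genotypes in the test of the difference itself (edgeR quasi-likelihood, adjusted p under 0.05). Values are the log2 response of DKO cells minus that of wild-type cells. For zinc, H2BC18 differed by -2.01, H4C5 by -1.49, H4C8 by -1.48 and H2BC8 by -1.47. H2BC21 differed by -1.13, H2BC11 by -1.01, H4C16 by -0.96, H2AC6 by -0.58 and H1-2 by -0.46. For cadmium, the other-strand signal at H1-5 differed by -3.03, a value that rests on 1 read in wild-type water, H4C8 by -2.66, H4C5 by -2.17 and H2BC17 by -2.13. H2BC18 differed by -1.88, H2BC8 by -1.2, H2BC15 by -0.9, H2BC21 by -0.72 and H2AC6 by -0.54. The signal at H4C9 differed by -0.5 and H2BC12 by -0.47. H2BC8, H2BC18, H2BC21, H2AC6, H4C5 and H4C8 were called for both metals, whose responses share the water libraries. H4C16 and H4C5 (zinc) and H1-5, H2AC6 and H2BC21 (cadmium) lost the call when some single library was left out. H1-5, H2BC17, H2BC18 and H4C5 reached 10 reads in all 3 libraries of metal groups only, so they were tested through groups where they are high.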

How the results depend on the processing

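No member's change turned direction under any alternative. Requiring 5 CPM in 3 libraries left 12 members tested. Of these, zinc raised 12 and cadmium 10 in DKO cells, and each raised 12 in wild-type cells. DKO against wild type gave 1 higher and 9 lower in water, 0 higher and 11 lower with zinc, and 0 higher and 11 lower with cadmium. That filter left 5 smaller zinc and 6 smaller cadmium responses in DKO cells, and 11 (DKO) and 9 (wild type) members lower with cadmium than with zinc. Without a filter 62 members were tested, of which zinc raised 26 and cadmium 14 in DKO cells and 36 and 28 in wild-type cells, a smaller share than of the 32; DKO against wild type then gave 4 higher and 11 lower in water, 4 and 28 with zinc and 3 and 25 with cadmium. Sense-strand counts, and leaving out H1-5 and H4C9 (chosen after seeing the data), each gave 1 member higher in DKO cells with cadmium. Leaving out 1 library gave 0 to 1 lower with cadmium in DKO cells (H2AC20 without replicate 3 of DKO cadmium), 0 to 1 larger zinc responses in DKO cells (H3C6 without replicate 3 of DKO water) and 0 to 1 higher with cadmium than zinc in wild-type cells (H1-4 without replicate 1 of wild-type zinc). The replicate block gave 25 (zinc) and 16 (cadmium) members higher in DKO and 30 and 26 in wild-type cells. With water, zinc and cadmium it gave 3, 3 and 2 higher and 11, 25 and 25 lower in DKO against wild type. It gave 10 and 11 smaller zinc and cadmium responses. In DKO and wild-type cells 19 and 18 were lower with cadmium than zinc. On average over the other groups, 16 of 18 libraries correlated most with libraries of their own number. DESeq2 left 336 of 352 member results on the same side of the threshold. The 352 include results without an adjusted p in DESeq2, which gave one to 23 (zinc) and 29 (cadmium) of 32 members in the difference terms. Scaling by library size alone moved the median of all genes by -0.12 (cadmium, DKO) and -0.13 (cadmium, wild type) and the share higher among called genes to 28.8% and 35.5%, against 49.3% and 48.6% with TMM, and to 37.2%, against 50.4%, for zinc in DKO cells; 345 member results kept their side. Low counts limit 16 tested members and the 38 that did not pass the filter, which are described by their sum.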
